A study of Homo sapiens with 8 samples.

Results

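H23 is an established human lung cancer line that the labels give as adenocarcinoma, and its spheres are described here as both libraries with that cell line label, 2 of the 8 libraries of the series. They are set against the 6 libraries of the other lines, EBC1 (squamous cell carcinoma per the labels), H820 and H1975 (both adenocarcinoma per the labels). All were grown as pneumospheres, which are clusters of tumour cells floating in ultra-low attachment flasks in a serum-free DMEM-F12 medium with FGF, EGF and B-27 supplement. A line is represented by a pair of libraries, one from untreated spheres and one from spheres given PD-L1s (a soluble form of the immune ligand PD-L1) at 25 µg/ml during 15 min without serum (0% FBS). Total RNA was sequenced after removal of ribosomal RNA, and the deposited values are counts of read pairs over the exons of each gene. The question taken up here is what sets H23 apart from the other lines, whatever the treatment. Every group is 1 cell line, so a difference from H23 is one between lines and not between classes of tumour.

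Epithelial cells hold together through E-cadherin junctions, tight junctions and desmosomes, and keep an apical side with the help of polarity proteins, membrane proteases and keratin filaments. The GRHL, ELF3 and OVOL transcription factors, the splicing factors ESRP1 and ESRP2 and the miR-200 microRNAs maintain that state, while ZEB, SNAI, TWIST and PRRX factors are known to oppose it. Neuroendocrine cells of the lung store peptides in dense-core granules built on chromogranins and secretogranins, and release them with the machinery that neurons use at synapses. Both programmes are commonly used to place lung cancer lines on an epithelial to mesenchymal scale and on a neuroendocrine one.

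The microRNAs below are shown because they pair with the messages of ZEB1 and ZEB2 and because, in H23, few or no read pairs fell on the hairpins of the miR-200 family or on the host transcript of miR-205. Mature sequences are from RefSeq (GRCh38.p14), 5′ to 3′, with the seed (bases 2 to 8) in capitals.
hsa-miR-200b-3p: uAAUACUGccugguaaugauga
hsa-miR-200c-3p: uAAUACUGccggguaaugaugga
hsa-miR-429: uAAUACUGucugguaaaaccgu
hsa-miR-200a-3p: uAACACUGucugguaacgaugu
hsa-miR-141-3p: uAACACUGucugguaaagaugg
hsa-miR-205-5p: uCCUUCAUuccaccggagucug
The first 3 share the seed AAUACUG, and miR-200a-3p and miR-141-3p share AACACUG.

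The H23 libraries held 20310707 (untreated) and 15563010 (PD-L1s) counts, and the other 6 libraries between 5559870 and 27524854, the untreated libraries of EBC1 and H820 being the shallow ones. More genes had at least 1 count in H23 (32454 and 31704) than in the deepest library of any other line (29191 to 31651). Across the genes tested, the H23 libraries correlated with each other at a Pearson r of 0.995 on log2(CPM + 0.5), with libraries of the other lines at 0.815 to 0.825, while libraries of the other lines correlated among themselves, between lines, at 0.856 to 0.890. These coefficients are over genes, which are not independent, and describe the libraries only. Levels below are in CPM, read counts put on a common library size with TMM factors, with the untreated library given before the PD-L1s one. A count of 0 allows up to 3 counts, and that floor and all intervals given cover counting error only.

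Of 24185 genes tested with edgeR's quasi-likelihood test, 14940 (61.8%) differed between H23 and the mean of the other 3 lines at an adjusted p under 0.05. In H23, 8322 (34.4%) were higher and 6618 (27.4%) were lower. In 5093 of the genes tested (21.1%) the call was higher and both H23 libraries lay above all 6 others, and in 3940 (16.3%) the call was lower and both lay below all 6. Taken line by line, 14823 genes (61.3%) differed between H23 and EBC1, 33.0% higher and 28.3% lower in H23. Against H820 14255 genes (58.9%) differed, 29.8% higher and 29.1% lower, and against H1975 15150 (62.6%) differed, 31.8% higher and 30.8% lower. These comparisons share the H23 libraries. The lists of genes below are read against those shares. Calls of at least 32-fold numbered 964 higher and 636 lower. Scaling by library size alone, without TMM factors, moved the median fitted log2 difference of all genes by 0.44, to 0.54, and turned the split into 12171 higher and 4300 lower genes.

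These p-values measure the spread between the 2 libraries of a line, treatment apart, and not the spread between lines or tumours. When the 2 libraries were summed and the 3 other lines served as the replicates, edgeR called 0 of 26671 genes (2288 had an unadjusted p under 0.05, and the smallest adjusted p was 0.323), limma-voom called 0 (2770 under 0.05), and DESeq2 called 346 higher and 1045 lower genes. H23 is then a single sample, assumed to vary as the other lines do. The number of calls in that DESeq2 fit, chosen after the data were seen, stands below beside each gene list. It is given together with the number of genes in which the H23 libraries do not overlap with any other. In edgeR and limma-voom with lines as replicates no list member was called, so these DESeq2 calls are not shared by the other tools. In bulk RNA, fewer cells making a transcript and less of it per cell cannot be told apart.

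Genes of epithelial junctions were lower in H23, and most of them lay below every other library. Of the 25 junction genes tested, 22 were lower and 3 higher, 20 and 2 of them without overlap, with a median log2 difference of -1.91 against 0.10 over all genes. DESeq2 with lines as replicates called 11 lower and 1 higher. The list medians were -2.35 against EBC1, -1.61 against H820 and -1.95 against H1975. CDH1, which encodes E-cadherin, had 2.01 and 1.66 CPM in H23, against a lowest value of 332, a median of 852 and a highest of 1285 in the other 6 libraries. That is a log2 difference of -8.65 ± 0.27 (SE, adjusted p = 9.99e-15). CLDN7, a tight junction claudin, had 0.442 and 0.201 CPM in H23 and 122 to 255 CPM in the others, with a median of 189. CDH1 and CLDN7 were both far under the range of the other lines. DESeq2 with lines as replicates called both, whereas edgeR and limma-voom on the same sums did not.

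The loss was graded across junction genes. EPCAM, an epithelial adhesion molecule, kept 11.6 and 11.5 CPM in H23, against 186 to 302 CPM in the others, a log2 difference of -4.38 ± 0.18 (adjusted p = 2.1e-13). CLDN4 kept 11.6 and 8.8 CPM in H23 against 248 to 582 CPM in the others. The desmosome genes JUP and DSP moved less. JUP, which encodes plakoglobin, had 227 and 198 CPM in H23 and 293 to 479 in the others (-0.82 ± 0.16). DSP, which encodes desmoplakin, had 207 and 181 CPM in H23, inside the range of 115 to 686 of the others. JUP was not called with lines as replicates (DESeq2 adjusted p = 0.684). The junction list also held a gene that went the other way. DSC3, a desmosomal cadherin of stratified epithelia, had 1346 and 954 counts (54 and 48 CPM) in H23 and at most 6 counts in any other library, a ratio of summed counts of 391 (95% exact interval 228 to 736). Its neighbour on chromosome 18, DSC2, was lower in H23 (log2 -1.20), with 79.3 CPM on average against 99.8 to 291 CPM in the others. DSC1, the next coding gene after DSC2, was higher like DSC3 (log2 5.44), with 198 and 183 counts in H23 and at most 10 in any other library. PERP, a desmosome protein induced by p53, was higher at 552 and 558 CPM against 199 to 320 CPM.

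All 22 tested genes of apical polarity, vesicle sorting and membrane proteolysis were lower in H23, 20 without overlap. Their median log2 difference was -5.95, and DESeq2 with lines as replicates called 17 of them, all lower. ST14, the membrane protease matriptase, had 13 and 8 counts (0.522 and 0.402 CPM) in H23, against 162, 277 and 710 CPM as lowest, median and highest of the others (log2 -9.31 ± 0.26, adjusted p = 2.78e-15). PRSS8, prostasin, which acts with matriptase, had 5 and 3 counts in H23 and 77.9 to 326 CPM in the others. Their inhibitor SPINT1 kept 5.26 and 5.08 CPM in H23, against 155 to 316. Both proteases and the inhibitor were below every other library in H23, the inhibitor with a log2 difference of -5.34 ± 0.20. MAL2, a sorting protein of the apical route, had 4 counts in each H23 library against 190 to 469 CPM. RAB25, a GTPase of apical recycling, had 3 and 0 counts in H23 and 2.84 to 45.3 CPM in the others, a ratio of others to H23 of 316 (interval 108 to 1534). CRB3, the epithelial Crumbs protein, had 3 and 5 counts in H23 against 15.9 to 26 CPM. Of the 22, TMPRSS2 and SH3YL1 were lower with overlap. TMPRSS2, a surface protease, had 0.723 and 0.453 CPM in H23 and 110 and 144 CPM in H820, but 0 and 3 counts in EBC1.

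**Figure D1:**
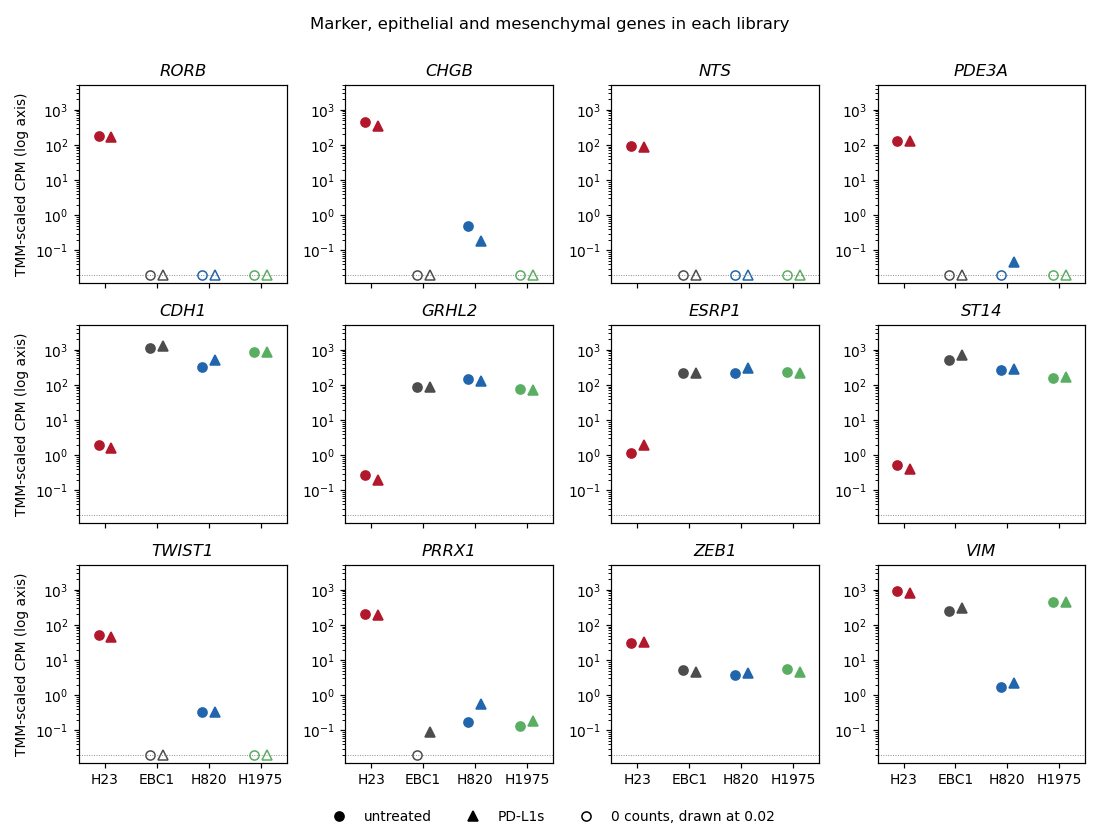
TMM-scaled CPM (log axis) of 12 genes in each library, by line, with circles for untreated and triangles for PD-L1s spheres. Open symbols at 0.02 CPM mark 0 counts. H23 stands alone at the top for RORB, CHGB, NTS, PDE3A, TWIST1 and PRRX1 and alone at the bottom for CDH1, GRHL2, ESRP1 and ST14, whereas VIM is also high in EBC1 and H1975.

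Regulators of the epithelial state were mostly lower too, with 15 of 19 tested genes lower, 13 of them without overlap, and 1 higher (median log2 -3.19; DESeq2 with lines as replicates 12 lower, 1 higher). GRHL2, a grainyhead factor that activates CDH1 and claudin genes, had 7 and 4 counts (0.281 and 0.201 CPM) in H23, against 71.9, 86.9 and 150 CPM as lowest, median and highest of the others (log2 -8.59 ± 0.24, adjusted p = 2.02e-15). ELF3, an ETS factor of epithelia, had 1.04 and 0.754 CPM against 244 to 1037. ESRP1, which directs epithelial splicing, had 1.12 and 1.96 CPM against 213 to 306, and its relative ESRP2 kept 7.71 and 6.39 CPM against 27.9 to 89.4. In each case the H23 libraries were the lowest. OVOL1, a zinc finger repressor of ZEB1, had 4 and 3 counts in H23 and 9.22 to 26.9 CPM in the others. GRHL3, the grainyhead factor of barrier-forming epidermis, was the exception, with 32.6 and 30.5 CPM in H23 against 0.576 to 3.68 CPM (log2 4.40 ± 0.16, adjusted p = 6.45e-14). TP63, the squamous and basal cell factor, was not called (log2 -0.32 ± 0.35, adjusted p = 0.461), with 1.89 and 1.26 CPM in H23, 87.2 and 86.7 CPM in H1975 and at most 0.372 CPM in EBC1 and H820, and its log2 difference was 2.47 when H1975 was left out. FOXA1 was lower than the mean of the other lines with overlap, at 3.97 and 4.22 CPM in H23 and 0.873 and 1.18 CPM in H1975.

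Read pairs over the microRNA hairpins shown above were few, since these libraries were not made for small RNA, and they were nearly absent in H23. MIR200B had 0 counts in both H23 libraries, against 6 and 46 in EBC1, with H820 at 11 and 27 and H1975 at 1 in each (adjusted p = 0.00122). MIR429, of the same cluster on chromosome 1, had 0 counts in H23, against 4 and 22 in EBC1, with H820 at 7 and 16 and H1975 at 0 and 3 (adjusted p = 0.00293). MIR141, from the other cluster on chromosome 12, had 0 and 1 counts in H23 and 2 to 24 in the others (adjusted p = 0.000944). Both H1975 libraries were nearly as low as H23 for MIR200B. The untreated H1975 library was nearly as low as H23 for MIR429 too, but not for MIR141. MIR200A had 0 counts in H23 and 0 to 18 in the others (adjusted p = 0.0196). MIR200C had 0 counts in H23 and 0 to 18 in the others and was below the filter on low counts. MIR205HG, the host transcript of miR-205, had 0 and 1 counts in H23 against 20 to 422. These hairpins, other than the host transcript, were picked after their values were seen, and the counts are of precursor or host RNA and not of mature microRNA.

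The promoters of some of these genes hold the letters CAGGTG, the E-box that ZEB and SNAI repressors bind. They are shown for CRB3 and CLDN7, which hold the most copies among the epithelial members called lower, and for RAB25 and the host gene of miR-200c and miR-141. That host gene, MIR200CHG, was not found under this symbol among the counts, so it has no level or call here. Each is the 250 bases before a RefSeq start (GRCh38.p14), 5′ to 3′ on the gene's strand, with CAGGTG or its reverse complement CACCTG in capitals.
CRB3, chr19:6464021-6464270, plus strand: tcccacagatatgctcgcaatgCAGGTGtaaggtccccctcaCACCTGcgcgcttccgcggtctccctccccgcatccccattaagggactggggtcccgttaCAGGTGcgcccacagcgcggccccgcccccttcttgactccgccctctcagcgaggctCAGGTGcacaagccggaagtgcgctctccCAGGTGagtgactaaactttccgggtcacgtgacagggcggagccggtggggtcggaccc
CLDN7, chr17:7262479-7262728, minus strand: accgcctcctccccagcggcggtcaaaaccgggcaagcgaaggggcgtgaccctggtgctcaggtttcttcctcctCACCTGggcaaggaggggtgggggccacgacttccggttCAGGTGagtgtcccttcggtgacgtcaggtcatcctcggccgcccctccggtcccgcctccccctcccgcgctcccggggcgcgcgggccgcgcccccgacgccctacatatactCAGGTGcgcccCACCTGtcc
RAB25, chr1:156060910-156061159, plus strand: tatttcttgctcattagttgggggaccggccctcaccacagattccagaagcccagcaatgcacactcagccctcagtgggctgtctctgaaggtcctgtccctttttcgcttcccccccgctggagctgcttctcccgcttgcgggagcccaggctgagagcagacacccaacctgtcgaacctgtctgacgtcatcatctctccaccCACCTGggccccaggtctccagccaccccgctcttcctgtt
MIR200CHG, chr12:6962995-6963244, plus strand: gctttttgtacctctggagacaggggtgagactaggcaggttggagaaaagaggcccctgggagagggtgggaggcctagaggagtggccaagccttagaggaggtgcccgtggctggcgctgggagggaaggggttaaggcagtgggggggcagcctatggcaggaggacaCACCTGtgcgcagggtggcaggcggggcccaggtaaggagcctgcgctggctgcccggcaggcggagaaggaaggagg
CRB3 held 5 copies, the nearest 60 bases before the start, and the CLDN7 start shown held 4, the nearest 9 bases before it. RAB25 and MIR200CHG held 1 each, 41 and 78 bases before. For a gene with several starts the one with most copies was picked, and the other CLDN7 start held 0.

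Of 59 junction, polarity and regulator genes of epithelia called lower in H23, 32 had a RefSeq promoter in the table used, with 49 starts between them, and 24 of those 49 promoters (49.0%) held CAGGTG on either strand. The share was 9 of 66 (13.6%) for the 61 granule, synaptic, neuronal and neural regulator genes called higher in H23 (41 with a promoter) and 6143 of 35116 (17.5%) over all promoters of the same length. For TGACGTCA, the cAMP response element seen upstream of many neuropeptide genes and also searched on both strands, the shares were 2 of 49 (4.08%), 5 of 66 (7.58%) and 578 of 35116 (1.65%). A match of one motif can overlap one of the other by its end letters. The genes were chosen by their calls in these same data, so the shares are a description and not a test. Genes with several starts, such as SH3YL1 and RBM47, count more than once. CDH1, GRHL2, ESRP1 and ST14 had no promoter in the table used. These are matches of letters, and no binding was measured here.

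Keratins were lower without exception among the called genes, 12 of 13 tested and 8 of them without overlap (median log2 -3.48; DESeq2 with lines as replicates 7 lower). KRT19 had 1.49 and 0.805 CPM in H23, against a lowest value of 750, a median of 988 and a highest of 1449 CPM in the others (log2 -9.69 ± 0.35, adjusted p = 5.05e-14). KRT7, a keratin of simple epithelia used as an adenocarcinoma marker, had 5 and 7 counts in H23 and 116 to 586 CPM in the others. The simple keratin pair KRT8 and KRT18 was reduced and not lost. KRT8 had 55.8 and 52.7 CPM in H23 against 212 to 1113, and KRT18 had 74.2 and 76.2 CPM against 121 to 436. The remaining 8 keratins of the list were below the filter, with up to 119 counts in a library.

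**Figure D2:**
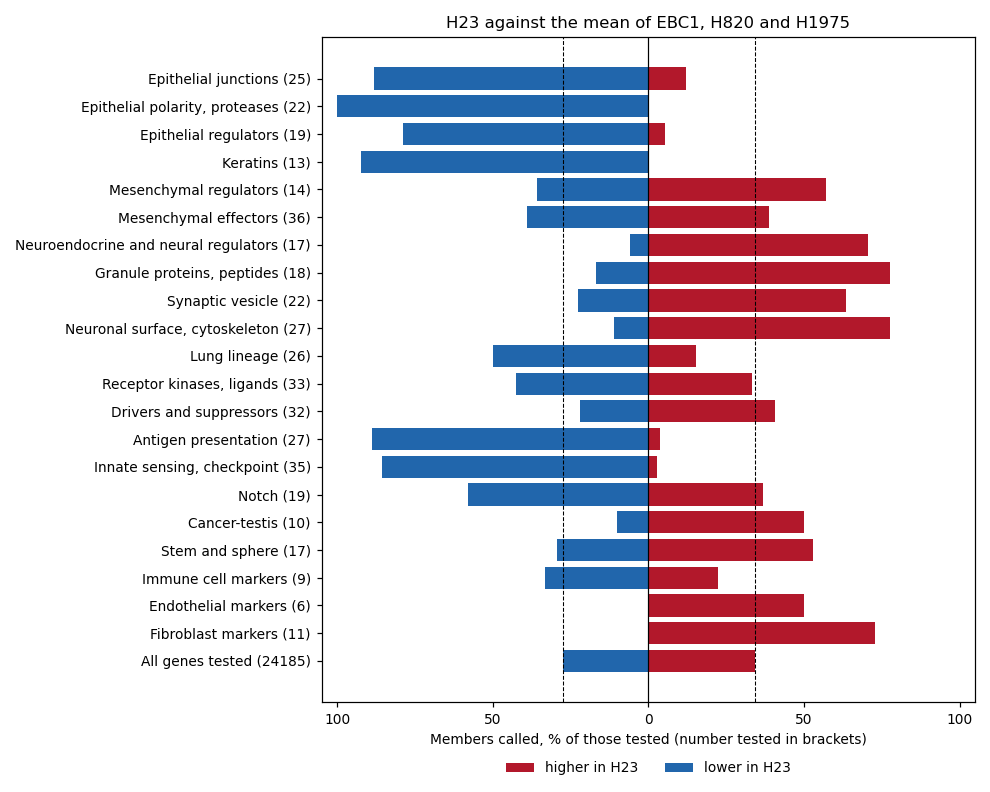
Share of the tested members of each gene list, in percent, called higher (red, to the right) and lower (blue, to the left) in H23 against the mean of the other lines, with the number tested in brackets and dashed lines at the shares over all genes. Epithelial, keratin, antigen presentation and innate sensing lists reach far to the left. Granule, neuronal, neuroendocrine regulator and fibroblast marker lists reach far to the right.

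Transcription factors of the mesenchymal state were split in H23. Of 14 tested, 8 were higher and 5 lower, 7 and 2 of them without overlap (median log2 1.93; DESeq2 with lines as replicates 3 higher, 2 lower). PRRX1, a homeobox factor of mesenchyme, had 5113 and 3761 counts (205 and 189 CPM) in H23 and 0 to 12 counts in the others, a ratio of 892 (interval 589 to 1424). TWIST1, a basic helix-loop-helix repressor of CDH1, had 1250 and 897 counts (50.2 and 45.1 CPM) in H23, 2 and 7 counts in H820 and 0 in EBC1 and H1975. ZEB1, the target of the miR-200 seeds, had 30.8 and 31.9 CPM in H23 against 3.73, 4.53 and 5.54 CPM as lowest, median and highest of the others (log2 2.76 ± 0.14, adjusted p = 5.44e-12). For all 3 factors the H23 libraries lay above every other. With lines as replicates DESeq2 called PRRX1 and ZEB1 but not TWIST1 (adjusted p = 0.529). PRRX2 had 320 and 220 counts against at most 2, and TCF4, an E protein, had 14.9 and 17.5 CPM against 0.0437 to 2.11.

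SNAI2, the repressor SLUG, went the other way, with 12 and 7 counts (0.482 and 0.352 CPM) in H23 and 4.41 to 19.4 CPM in the others (log2 -4.28 ± 0.29, adjusted p = 2.87e-10). FOSL1, an AP-1 subunit of migrating cells, had 3.21 and 2.87 CPM in H23 against 23.7 to 306. SNAI1 was lower with overlap, at 6.54 and 4.93 CPM in H23 against 4.91 to 62. TWIST1, PRRX1 and ZEB1 were thus higher and SNAI1 and SNAI2 lower in the same H23 libraries.

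Matrix, adhesion and cytoskeletal genes of the mesenchymal state showed no common direction, with 14 of 36 higher and 14 lower, 12 and 6 without overlap (median log2 0.03). The list medians were 0.71 against EBC1, 0.61 against H820 and -0.53 against H1975. DESeq2 with lines as replicates called 3 higher and 4 lower. VIM, which encodes the intermediate filament vimentin, had 904 and 822 CPM in H23, against 442 and 446 in H1975, with EBC1 at 255 and 299 and H820 at 1.69 and 2.28. H23 was the highest, but the fitted log2 difference of 3.76 ± 0.14 takes in the very low level of H820, and VIM was not called with lines as replicates (DESeq2 adjusted p = 0.921). COL3A1, a fibrillar collagen, had 298 and 243 counts (12 and 12.2 CPM) in H23 and 0 in all 6 other libraries, at least 399-fold higher against a floor of 3 counts over the group. COL5A2 had 123 and 126 CPM in H23 against 1.39 to 5 CPM (log2 5.49 ± 0.14, adjusted p = 9.75e-16). CDH11, a cadherin of mesenchyme, had 15.7 and 16.6 CPM in H23, 6.24 and 4.9 CPM in H1975 and at most 1 count elsewhere.

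Other classical effectors were lower in H23. TGFBI, a matrix protein induced by TGF-beta, had 1.41 and 0.855 CPM in H23 against 102 to 782 CPM (log2 -8.03 ± 0.30, adjusted p = 1.01e-13). CD44, the hyaluronan receptor, had 8.47 and 8.9 CPM against 178 to 649. Fibronectin, FN1, had 21.8 and 25 CPM in H23, above EBC1 at 10.8 and 16.7 and far under H820 and H1975 at 505 to 1451. CDH2, N-cadherin, had 2.53 and 2.61 CPM in H23 against 126 and 123 CPM in EBC1 and at most 2 counts in H820 and H1975. The call of CDH2 as higher (log2 2.85 ± 0.50) rests on a mean of logs over 3 lines, and H23 did not exceed EBC1.

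**Figure D3:**
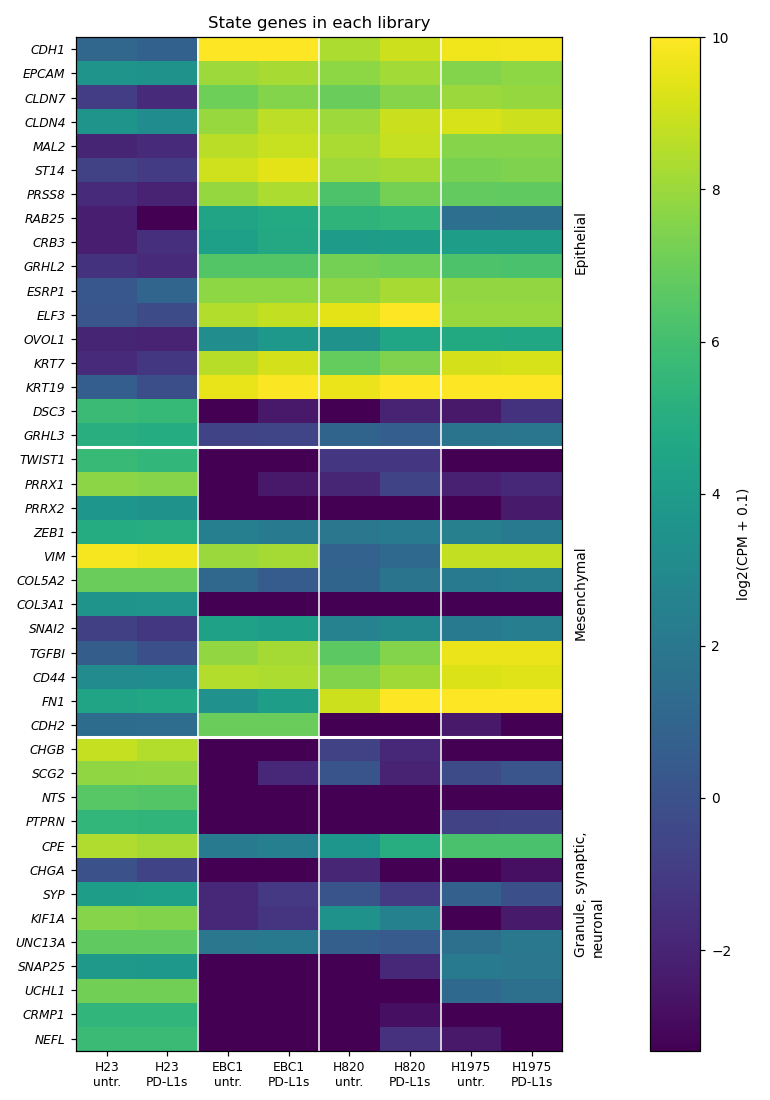
Log2(CPM + 0.1) of epithelial, mesenchymal and granule, synaptic and neuronal genes (rows) in each of the 8 libraries (columns), with colours capped at 10. Both H23 columns are dark for most epithelial genes and light for TWIST1, PRRX1, CHGB, SCG2 and UCHL1, while SNAI2, TGFBI and CD44 are darker in H23 than elsewhere.

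RORB, CHGB, NTS and PDE3A were the coding genes with the highest fitted log2 difference without overlap, and had been proposed as markers of H23. RORB, a nuclear receptor of the retinoid-related orphan family active in brain and retina, had 4627 and 3392 counts (186 and 171 CPM) in H23 and 0 in all 6 other libraries, at least 5911-fold higher. CHGB, chromogranin B, a core protein of dense-core granules, had 11260 and 7052 counts (452 and 355 CPM) in H23, 3 and 4 counts in H820 and 0 in EBC1 and H1975, a ratio of 5785 (interval 2807 to 14391). NTS, the precursor of the peptide neurotensin, had 2345 and 1696 counts (94.2 and 85.3 CPM) in H23 and 0 elsewhere, at least 2979-fold higher. PDE3A, a phosphodiesterase that degrades cAMP, had 3314 and 2660 counts (133 and 134 CPM) in H23 and a single count in all other libraries, a ratio of 13211 with a wide interval of 2370 to 521902. None of these 4 overlapped with another line, and their levels are given as a description. The 4 genes are the highest by fitted difference in these same libraries, so a further call on them adds no support. CHGB was not called by DESeq2 with lines as replicates. By CPM per kilobase of exon in H23, CHGB ranked 130 among protein-coding genes (158 CPM per kb), NTS 390 (72.4), RORB 2462 (18.6) and PDE3A 2646 (17.6).

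In the files' GRCh37 coordinates, RORB lies on chromosome 9 from 77112281 to 77308093, CHGB on chromosome 20 from 5892076 to 5906007, NTS on chromosome 12 from 86268073 to 86276770 and PDE3A on chromosome 12 from 20522179 to 20837315, all on the plus strand and protein-coding. Their neighbours went in both directions. Around CHGB, TRMT6, the next coding gene after it, was higher (27.2 CPM on average in H23 against 11 to 22.5), as were MCM8 (81.9 against 20 to 71.7) and GPCPD1 (181 against 26.1 to 85.8), while C20orf196, the next before it, was not called. ANXA1, the next coding gene before RORB, was lower in H23 (233.9 CPM on average against 457 to 925). TRPM6, the next after it, had 31 and 25 counts in H23 and 0 to 12 counts in the others. RASSF9, the next coding gene before NTS, was higher (12.7 CPM on average in H23 against 0.349 to 10.8). MGAT4C, the next after NTS, had 168 and 155 counts in H23 and up to 110 in treated H820, and ALX1, the second before it, had 217 and 190 counts against at most 5. The coding genes next to PDE3A were AEBP2, which overlapped with the other lines, and SLCO1C1, with 9 and 10 counts in H23 and 0 elsewhere.

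Granule proteins and peptides were mostly higher in H23. Of 18 genes tested, 14 were higher, all without overlap, and 3 were lower, 2 without overlap (median log2 4.51; DESeq2 with lines as replicates 2 higher, 1 lower). SCG2, secretogranin II, had 5463 and 4520 counts (219 and 227 CPM) in H23 and 0 to 22 counts in the others, a ratio of 425 (interval 323 to 569). PTPRN, a membrane protein of granules also known as IA-2, had 1138 and 823 counts against 12 in each H1975 library and 0 in EBC1 and H820. CPE, which trims prohormones, had 336 and 298 CPM in H23, against 4.61, 22 and 72.4 CPM as lowest, median and highest of the others (log2 4.01 ± 0.17, adjusted p = 5.84e-13). H1975 came nearest to H23 for PTPRN and CPE. VGF, a secreted granule peptide precursor, had 50.4 and 48 CPM in H23 and up to 20.4 CPM in H1975. With lines as replicates DESeq2 called SCG2 but not CPE (adjusted p = 0.254), PTPRN (0.631) or VGF (0.52).

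The granule list was uneven. CHGA, chromogranin A, the usual clinical marker of neuroendocrine tumours, had only 22 and 11 counts (0.883 and 0.553 CPM) in H23 and at most 1 count elsewhere, a ratio of 36.5 (interval 9.33 to 314). The prohormone convertase PCSK1 had 1.77 and 2.11 CPM in H23, and the peptide genes NPY and GAL had 2.73 and 2.16 CPM and 7.55 and 8.7 CPM, each above every other library. PAM, which amidates peptides, was lower at 60.1 and 61.4 CPM against 167 to 215 CPM (log2 -1.69 ± 0.14, adjusted p = 3.96e-09), as was the convertase chaperone SCG5 at 0.683 and 0.704 CPM against 1.73 to 14.2. The other 12 genes of the list, among them those for calcitonin, somatostatin and gastrin-releasing peptide, were below the filter, with at most 7 counts in any library.

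Genes of synaptic vesicles and regulated exocytosis were higher in 14 of 22 cases and lower in 5, 13 and 4 of them without overlap (median log2 3.60; DESeq2 with lines as replicates 3 higher, 2 lower). UNC13A, which primes vesicles, had 108 and 109 CPM in H23 against 1.3 to 4.08 CPM (log2 5.37 ± 0.13, adjusted p = 5.33e-16). KIF1A, a kinesin that carries vesicle precursors, had 195 and 178 CPM in H23, 10.8 and 5.67 CPM in H820 and at most 7 counts per library in EBC1 and H1975. SYP, synaptophysin, had 432 and 364 counts (17.3 and 18.3 CPM) in H23 and 0.192 to 1.62 CPM in the others. For each of these the H23 libraries exceeded all others, although KIF1A was not called with lines as replicates (DESeq2 adjusted p = 0.0628). SV2A, a vesicle glycoprotein, was shared with H820, at 38 and 36.4 CPM in H23 against 28.8 and 33.7 CPM in H820, and at most 13 counts in the rest. Several members of the same machinery were lower. SYT7, a calcium sensor of exocytosis, had 10.4 and 9.1 CPM in H23 against 73.6 to 127, and the plasma membrane SNARE STX1A had 11 and 10.3 CPM against 31.7 to 62.8.

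Of 27 neuronal surface, cytoskeletal and RNA-binding genes tested, 21 were higher in H23 and 3 lower, 17 and 2 without overlap (median log2 4.23; DESeq2 with lines as replicates 5 higher, 1 lower). UCHL1, a neuronal ubiquitin hydrolase known as PGP9.5, had 3533 and 2805 counts (142 and 141 CPM) in H23, 51 and 62 counts in H1975 and 0 in EBC1 and H820, a ratio of summed counts of 124 (interval 103 to 151), and was not called with lines as replicates (DESeq2 adjusted p = 0.689). CRMP1, a collapsin response mediator of axons, had 1082 and 868 counts (43.4 and 43.6 CPM) in H23 and 1 count elsewhere. NEFL, the light neurofilament, had 1335 and 1073 counts against at most 6. The heavy chain NEFH had 455 and 281 counts against at most 1, and INA, alpha-internexin, had 31.8 and 29.1 CPM against 0 to 2.2 CPM. ENO2, neuron-specific enolase, was lower in H23, at 50.2 and 47.2 CPM against 68.4 to 1098 CPM (log2 -2.58 ± 0.20, adjusted p = 2.35e-09), and so was the tubulin gene TUBB2B at 2.37 and 1.61 CPM against 4.95 to 15.5. Of the list medians against single lines, those against H820 were the smallest (log2 3.77 for granule, 0.93 for synaptic and 2.27 for neuronal genes), and no test of that order was run.

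NEUROD1 and INSM1, transcription factors that mark neuroendocrine lung cancer, were at or near 0 in H23. NEUROD1 had 0 counts in both H23 libraries, and INSM1 had 1 and 0. NCAM1, the surface marker CD56, had 7 counts in each H23 library (0.281 and 0.352 CPM) and was below the filter. Of 17 regulators of neuroendocrine and neural fate that were tested, 12 were higher and 1 lower, 8 and 1 without overlap (median log2 2.47; DESeq2 with lines as replicates 3 higher, 1 lower). Beside RORB they include SOX11, a factor of developing neurons, with 186 and 106 counts in H23 and 1 count elsewhere. MYT1, a neural zinc finger factor, had 12.8 and 13.6 CPM in H23 against 0.134 to 3.05, and NKX2-2, a homeobox factor of neural tube and islets, had 65 and 54 counts against at most 2. The tuft cell factor POU2F3 was lower, with 0 and 2 counts in H23 against 3 to 252. REST, a repressor of neuronal genes, was not called (log2 -0.21 ± 0.12, adjusted p = 0.141), with 88.1 and 96.2 CPM in H23 and 94.5 to 133 in the others, and neither was YAP1 (143 and 152 CPM against 140 to 186). The H23 libraries thus carried granule, synaptic and neurofilament transcripts without transcripts of NEUROD1, and the cells are not called neuroendocrine here.

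**Figure D4:**
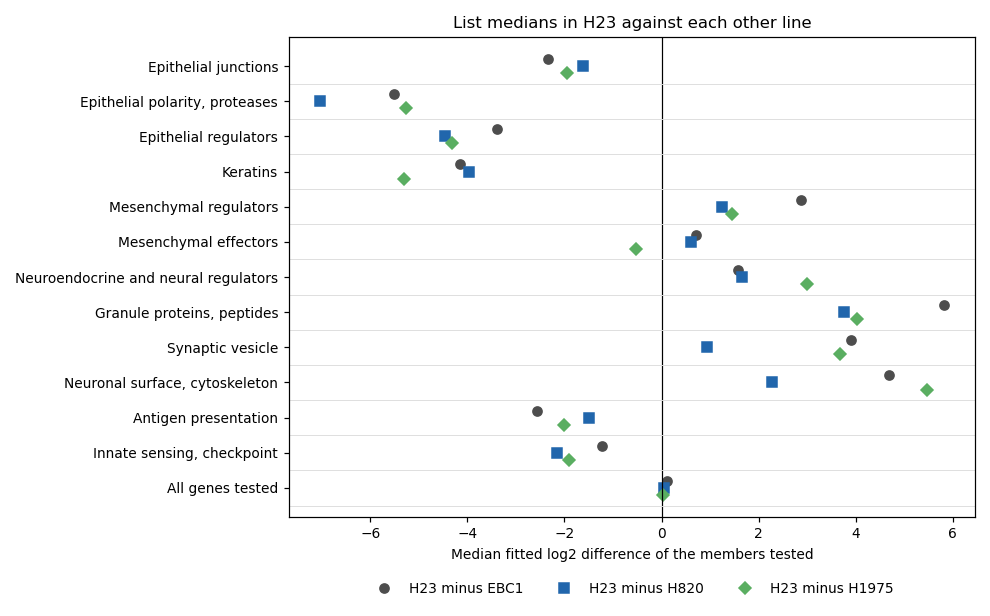
Median fitted log2 difference of the tested members of each list in H23 minus EBC1 (circles), H23 minus H820 (squares) and H23 minus H1975 (diamonds). The epithelial and keratin medians lie between -7.04 and -1.61 against each line, and the granule, synaptic and neuronal medians between 0.93 and 5.82.

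Genes listed at 0 in H23 and well expressed in all other lines were few. With 0 counts in both H23 libraries and at least 10 CPM in each of the other 6, there were 4, against 13 by the same rule for EBC1, 0 for H820 and 5 for H1975. SLC43A3, a purine transporter, had 0 counts in H23 against 29.9, 45.2 and 60.5 CPM as lowest, median and highest of the others, at least 660-fold lower in H23. DAPP1, a signalling adaptor of B cell receptors, had 0 counts against 17.7 to 49.6 CPM, at least 510-fold lower. HLA-DRA, the class II antigen-presenting alpha chain, had 0 counts against 10.5 to 83.6 CPM, at least 562-fold lower. The noncoding RP3-340N1.2 was at 0 against 15.2 to 78.1 CPM, at least 685-fold lower. SLC43A3 lies on chromosome 11 from 57174427 to 57195053 on the minus strand. RP11-872D17.8, which overlaps it on that strand and so can share its reads, was also at 0 in H23.

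When up to 3 counts per H23 library were allowed, the number of such genes was 18 in H23, against 27 in EBC1, 0 in H820 and 9 in H1975. EBC1 thus had more such genes than H23 by both rules. A limit on counts is easier to meet in its shallow untreated library, as in that of H820, and the part of depth was not tested. Among the 12 coding genes with the lowest fitted difference, which were chosen for that, were SYK, a kinase of immune receptors, with 0 counts in H23 against 9.12 to 64.5 CPM, and LAMB3, a laminin chain of epithelial basement membranes, with 20 and 5 counts against 567 to 1217 CPM. TINAGL1, a secreted matrix protein, had 2 and 1 counts against 36.7 to 742 CPM, TCN1, a vitamin B12 carrier, had 0 counts against 6.32 to 37.3 CPM, and IL1A, an interleukin, had 0 counts against 4.17 to 106 CPM. SERPINB4, SERPINB3 and SERPINB7, protease inhibitors of squamous epithelia that lie together on chromosome 18 between 61304493 and 61472610, were all at 0 counts in H23. SERPINB4 had 3.39 to 33.9 CPM in the others. SERPINB3 and SERPINB4 are near-identical, so their counts can be exchanged. Outside the naming rule and picked after its values were seen, SCOC, a Golgi protein gene on chromosome 4, had 1 count in each H23 library against 20.9 to 156 CPM in the others, while the next coding gene, CLGN, had 174 and 121 counts in H23 and overlapped with the others.

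Genes seen in H23 alone outnumbered those of any other line. With at least 10 CPM in both libraries of the line and at most 3 counts in each of the other 6, there were 40 in H23 (31 protein-coding), against 3 in EBC1, 25 in H820 and 19 in H1975. With the limit at 1 CPM there were 297 in H23, against 24 in EBC1, while H820 had 143 and H1975 had 104. With 0 counts required in the others there were 12 in H23, against 5 in H820 and 2 in each of EBC1 and H1975. Depth bears on these counts, since a rule of at most 3 counts is easier to meet when the other libraries are shallow, and H23 and H1975 each faced both shallow libraries while EBC1 and H820 faced 1. Its part in the numbers was not tested.

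Besides RORB, NTS and PDE3A, the leading genes of this kind were LINC00473, ATCAY, HGF, CHRNA9, MAGEA4, CRMP1, BRINP3, SDIM1 and POTEF. ATCAY, caytaxin, a protein of brain neurons, had 1891 and 1340 counts in H23 and 0 elsewhere, at least 2382-fold higher. HGF, the ligand of the receptor MET, had 1430 and 1495 counts (57.4 and 75.2 CPM) in H23 and 0 elsewhere, at least 2156-fold higher. LINC00473, a noncoding RNA known to respond to cAMP, had 2873 and 2552 counts and 1 elsewhere. CHRNA9, a nicotinic acetylcholine receptor subunit, had 1417 and 1207 counts against at most 2, and BRINP3, a neural-specific protein, had 975 and 883 counts against at most 2. POTEF belongs to a family of near-identical genes and its 791 and 555 counts are uncertain. SALL1, a developmental zinc finger factor, and PCDH17, a protocadherin of neurons, are further coding genes at 0 in all other libraries, with 664 and 604 counts and 386 and 347 counts in H23.

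**Figure D5:**
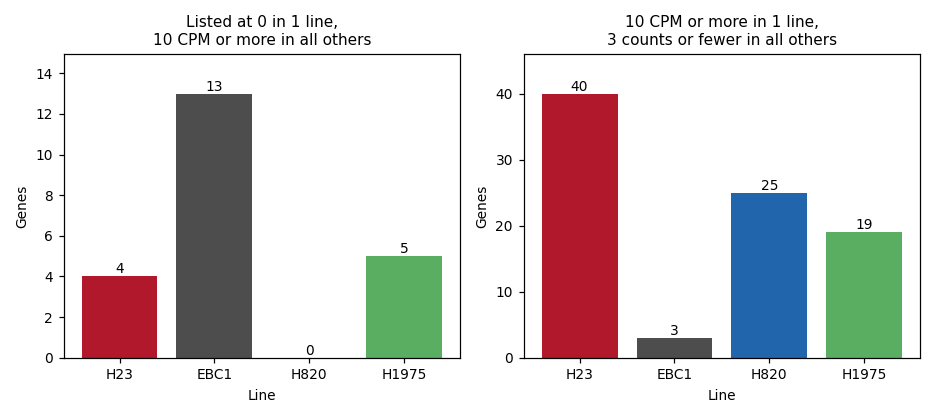
Numbers of genes by line, for genes listed at 0 in both libraries of a line with at least 10 CPM in all others (left) and for genes with at least 10 CPM in both libraries of a line and at most 3 counts in every other library (right). H23 has 4 of the first kind and 40 of the second, EBC1 has 13 and 3.

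Some of these genes lie side by side. On chromosome 6, SDIM1 (166307330 to 166309725, minus strand), with 967 and 861 counts in H23 and 0 elsewhere, is next to PDE10A, a phosphodiesterase, with 23.9 and 26.7 CPM in H23 against 0 to 2.31 CPM. On chromosome 4, CRMP1 (5822491 to 5894785, minus strand) is flanked within a few genes by STK32B, with 121 and 94 counts in H23 and 0 elsewhere, by EVC2, with 567 and 468 counts against at most 3, and by JAKMIP1, with 290 and 175 counts against at most 60. EVC, between EVC2 and CRMP1, overlapped with the other lines (64.8 CPM on average against 13.1 to 64). On chromosome 14, DLK1, a Notch-like ligand of progenitors, had 352 and 304 counts in H23 against at most 2. The noncoding MEG3, expressed from the other parental copy of the same imprinted locus, had 1913 and 1520 counts against at most 11. These neighbours were looked up after the values were seen.

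The labelled tissue was checked against lineage genes. Of 26 genes of lung lineage tested, 4 were higher in H23 and 13 lower, 3 and 6 without overlap (median log2 -1.54; DESeq2 with lines as replicates 7 lower). The direction differed by line, with list medians of 0.87 against EBC1, -3.36 against H820 and -2.15 against H1975, and without EBC1 20 genes were lower. NKX2-1, the lineage factor of lung adenocarcinoma, had 5.46 and 5.68 CPM in H23, 35.6 to 78.4 CPM in H820 and H1975 and at most 5 counts in EBC1, and was not called (log2 -0.61 ± 0.30, adjusted p = 0.0887). Its difference took the other sign when H1975 was left out (log2 1.04) or H820 was (0.56). NAPSA, the aspartic protease napsin A, had 1.57 and 1.01 CPM in H23 against 1.92 to 4.23 CPM, and SFTPB, a surfactant protein, had 1 and 0 counts and was hardly seen in any line. H23 thus stood between EBC1 and the other adenocarcinoma lines for NKX2-1, and below every library for NAPSA and KRT7. SOX9, a factor of distal lung progenitors, had 2.29 and 1.41 CPM in H23 against 13.2 to 177 CPM (log2 -5.51 ± 0.32, adjusted p = 4.34e-11), and the endoderm factor GATA6 had 1.2 and 0.704 against 11.5 to 25.9. ETV5, an ETS factor of distal lung that responds to FGF signalling, was higher at 127 and 122 CPM against 17.4 to 51.5. The squamous markers KRT5 and DSG3 had 1 count or fewer in each H23 library.

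Receptor kinases and their ligands changed in both directions, 11 of 33 higher and 14 lower, 8 and 11 without overlap (median log2 -0.20; DESeq2 with lines as replicates 1 higher, 7 lower). The share of higher genes (33.3%) is near that over all genes (34.4%), while 42.4% were lower against 27.4%. MET, the receptor of HGF, was lower in H23, where its ligand was high. It had 59.9 and 63.2 CPM in H23, against 477, 1441 and 7607 CPM as lowest, median and highest of the others (log2 -4.80 ± 0.23, adjusted p = 2.62e-12). EGFR had 52.9 and 57 CPM against 223 to 570, and its partner ERBB3 had 10.8 and 10.2 CPM against 45.3 to 350. The EGFR ligands TGFA (0.883 and 0.955 CPM against 11.3 to 89.3) and EREG (3.05 and 3.92 CPM against 20.7 to 309) were lower too. Other receptors were higher. FGFR1 had 58.2 and 54.9 CPM in H23 against 7.31 to 23 (log2 1.89 ± 0.12, adjusted p = 9.29e-11), IGF1R had 248 and 252 CPM against 47.5 to 121, and RET had 133 and 113 counts against at most 5.

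Among 32 lung cancer oncogenes, suppressors and chromatin remodelling genes, 13 were higher in H23 and 7 lower, 8 and 4 without overlap (median log2 0.15; DESeq2 with lines as replicates 2 higher, 1 lower), and with library size as the only scaling 24 were higher. The shares of this list, 40.6% higher and 21.9% lower, are not far from the 34.4% and 27.4% over all genes. SMARCA2, an ATPase of SWI/SNF chromatin remodelling complexes, had 39 and 22 counts (1.57 and 1.11 CPM) in H23 against 28.6, 47.5 and 49.3 CPM as lowest, median and highest of the others (log2 -4.90 ± 0.19, adjusted p = 1.58e-13). The alternative ATPase SMARCA4 had 65.2 and 65.1 CPM in H23, within the range of EBC1 (62.4 and 80.2) and below H820 and H1975. VLDLR, the next coding gene after SMARCA2, was low as well, with 45 and 21 counts in H23 and 25.9 to 83.3 CPM in the others. STK11, the kinase LKB1, had 21.5 and 22.4 CPM against 53 to 79.6 (log2 -1.44 ± 0.14, adjusted p = 8.72e-08). MYC was lower, at 74 and 67.2 CPM against 99.4 to 433, and its relative MYCN was higher, with 210 and 152 counts against a single count elsewhere. TERT, the telomerase catalytic subunit, had 22 and 22.2 CPM in H23 against 0.511 to 1.93 CPM (log2 4.44 ± 0.20, adjusted p = 1.33e-12).

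Antigen presentation genes were lower in H23 in 24 of 27 cases, 19 without overlap, and 1 was higher (median log2 -1.97; DESeq2 with lines as replicates 9 lower). The class II genes were nearly absent. CD74, the invariant chain, had 3 and 0 counts in H23 against 35.1 to 466 CPM, a ratio of 3176 (interval 1087 to 15404), beside HLA-DRA at 0. Their master activator CIITA had 2 and 6 counts against 8.81 to 41.6 CPM. Genes of class I presentation were reduced by less. B2M, the light chain shared by class I molecules, had 148 and 153 CPM in H23 against 569, 789 and 2312 CPM as lowest, median and highest of the others (log2 -2.77 ± 0.19, adjusted p = 3.21e-10), and NLRC5, the class I activator, had 1.93 and 2.56 CPM against 9.82 to 43.5. With lines as replicates DESeq2 called NLRC5 but not B2M (adjusted p = 0.0705). HLA genes resemble each other, so reads may pass between them. The peptide trimmer ERAP1 was higher (84 and 90.9 CPM against 31 to 59.6), and its relative ERAP2 was lower (1.77 and 2.82 against 5.25 to 267).

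Nucleic acid sensors, interferon factors and checkpoint ligands were lower in 30 of 35 cases, 20 without overlap, with 1 higher (median log2 -1.63; DESeq2 with lines as replicates 12 lower). CD274, the gene of PD-L1 itself, had 5 and 2 counts (0.201 and 0.101 CPM) in H23 against 9.3, 12.8 and 45.3 CPM as lowest, median and highest of the others, a ratio of 125 (interval 60.6 to 311). IFI16, a sensor of DNA, had 1.49 and 1.11 CPM in H23 against 57.7 to 388 (log2 -6.53 ± 0.21, adjusted p = 1.34e-14). TMEM173, the adaptor STING, had 0.482 and 1.21 CPM against 9.03 to 64.1. MB21D1, which encodes the sensor cGAS that acts before STING, was not called, with 29.1 and 25.5 CPM in H23 and 20.5 to 38.1 in the others. IRF3, the factor that acts after STING, was higher, at 57.3 and 54.3 CPM against 24.6 to 48.6 (log2 0.67 ± 0.12), and with library size as the only scaling 4 members of the list were higher and not 1.

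Markers of other cells were checked because mesenchymal and endothelial genes were among those higher in H23. Of 11 fibroblast and mural markers tested, 8 were higher and 0 lower, 5 without overlap (DESeq2 with lines as replicates 2 higher), and the whole list of 14 summed to 172 and 175 CPM in H23 against 27.1 to 117 CPM. FBLN1, fibulin, had 106 and 104 CPM in H23 against 0.986 to 54.7, and POSTN, periostin, had 93 and 71 counts against at most 1. DCN, which defines fibroblasts, had 4 and 1 counts in H23, and COL1A1 was not called (35.3 and 32.8 CPM against 18.3 to 57.2). The endothelial list summed to 14.1 and 14.5 CPM in H23 against 1.92 to 12.2 CPM. Of its 6 members tested, 3 were higher, all without overlap (DESeq2 with lines as replicates 1 higher), with ERG, an ETS factor of endothelium, at 267 and 187 counts against at most 1, while CDH5 had 2 and 0 counts and VWF 6 and 2. The immune and blood list, with 2 higher and 3 lower of 9 tested, 1 and 2 without overlap (DESeq2 with lines as replicates 2 lower), summed to 13.2 and 15.9 CPM in H23 against 95.2 to 163 CPM. Its members PTPRC (4 and 8 counts) and CD3E (0 and 0) were near 0, and the macrophage marker CD68, which tumour lines also express, was lower at 4.54 and 6.08 CPM against 65.9 to 152. DCN, CDH5, VWF, PTPRC and CD3E, defining markers of those cells, were thus at or near 0 in H23. By contrast, 8 of 11 fibroblast and mural markers and 3 of 6 endothelial markers tested were higher, and 0 were lower.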

How the data were processed

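The deposited files hold raw counts of read pairs per gene in the 8 libraries. STAR 2.7.3a and the build GRCh37 are named in the submitters' processing notes. Per the file headers, the authors counted pairs over the exons of each gene with featureCounts 2.0.0, reverse-stranded, from primary alignments, and a pair overlapping several genes was counted for each. Overlapping genes therefore share reads, and near-identical genes (MAGEA3 and MAGEA6, POTEF, SERPINB3 and SERPINB4, HLA genes) are uncertain. Gene length is the exonic length given in the deposited files.

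Counts were fitted with edgeR 4.0.16 (R 4.3.3), with cell line and treatment as terms, TMM scaling and a minimum count of 10 (24185 of 60106 genes), and tested by quasi-likelihood with Benjamini-Hochberg adjustment at 0.05. Every adjusted p is from this fit unless DESeq2 is named. The procedure was also run on simulated data. Those data held no difference between lines apart from genes changed in H23, so they cannot speak to the spread between lines. DESeq2 1.42.0 and limma 3.58.1 served as alternatives. Ratios of summed counts, scaled by summed library sizes, carry a 95% exact interval. Library totals ran from 5559870 to 27524854 counts, which sets the floor of 3 counts at 0.12 to 0.576 CPM per library. Nothing in the labels says that the 2 libraries of a line came from separate cultures.

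Members and gene lists were chosen with earlier results of these data known. The naming rule took the 12 highest and 12 lowest coding genes without overlap, RORB, CHGB, NTS and PDE3A, up to 12 genes silent in H23 and 12 seen there alone, up to 5 members per list and direction, and fixed defining genes. A few genes it selects are not reported here, which leaves 181. Neighbouring genes, microRNA hairpins, MEG3 and other members named beyond it were chosen after their values were seen. Of 545 list symbols 3 were not matched. Promoters and mature microRNAs are RefSeq sequences of GRCh38.p14, and no coordinates were converted.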

Additional observations from a re-analysis of the deposited data

How the results depend on the processing

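The 14940 genes called became 16471 under library size scaling, 15108 with RLE factors, 13529 with DESeq2, 15677 with limma-voom, 15042 with no filter on low counts, 12402 at a minimum count of 50 and 11189 among coding genes. Library size scaling left 4300 genes lower in place of 6618. With each library left out in turn the calls ranged from 11216 to 16288 (6303 to 9115 higher, 4751 to 7173 lower, 327 to 362 list members), and without the shallow libraries there were 17139. No paired analysis was possible because the replicate number is the treatment, which the fit already holds. Leaving treatment out gave 15190 calls.

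With the libraries of a line summed and lines as replicates, edgeR called 0 genes, 0 higher and 0 lower, and 0 list members in place of 353, and limma-voom called 0, 0, 0 and 0. DESeq2 called 1391 (346 higher, 1045 lower) and 129 list members. The limma-voom and DESeq2 fits on summed libraries were chosen after seeing the data. Genes silent in H23 numbered 18 when up to 3 counts were allowed and 30 at 1 CPM in the others. Genes seen only in H23 numbered 12 with 0 counts in the others and 297 at 1 CPM.

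Some named genes changed sign. NES, a filament protein of neural progenitors that was called lower with overlap, gave a log2 difference of 0.18 without H1975. NKX2-1 gave 0.56 without H820, 1.04 without H1975 and -0.73 to 0.96 over the fits that left out 1 library. TP63 gave 0.14 under library size scaling, 2.47 without H1975 and -0.68 to 1.49 over the fits that left out 1 library. The cause was not tested. With DESeq2 on single libraries 173 named genes kept their call and 6 lost it, and with RLE factors all 179 kept it. Both settings take the 2 libraries of a line as replicates. With lines as replicates every called named gene lost its call in edgeR and limma-voom, which called no gene at all, and many did in DESeq2. For genes of a few counts in H23, depth limits how far below the others they lie.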

Other observations

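Of the cancer-testis antigens, normally limited to germ cells, 5 of 10 tested were higher in H23, all without overlap, and 1 was lower with overlap, against 34.4% higher and 27.4% lower over all genes. DESeq2 with lines as replicates called 3 higher and 1 lower. The lower gene was not called without the untreated H820 library. MAGEA4 had 1401 and 1175 counts in H23 and 1 in all other libraries, a ratio of 5697 (interval 1022 to 225094). MAGEA3 had 193 and 166 counts in H23 against at most 4, and MAGEA6, which resembles it closely, had 172 and 134 against at most 1. MAGEB2 had 109 and 89 counts against at most 4. PRAME had 120 and 117 CPM in H23, against 66.8 and 66.5 in H1975, with H820 at 44.4 and 48.8 and EBC1 at 0. The other 26 antigens of the list were below the filter on low counts.

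Of 19 Notch pathway genes, 7 were higher and 11 lower in H23, 3 and 9 without overlap (median log2 -0.59). The share of higher genes is near that over all genes, 4 were higher without the untreated H23 library, and DESeq2 with lines as replicates called 1 higher and 1 lower. Among targets, HEY1 had 6 and 4 counts in H23, or 0.241 and 0.201 CPM, against 1.19 to 10.1 CPM (log2 -4.35 ± 0.37, adjusted p = 8.33e-09), and HES1 had 14.5 and 14.9 CPM against 19.3 to 59.6. HEYL and HEY2, of the same family, were higher, HEYL with 8.55 and 10.2 CPM against 1.34 to 5.08 and HEY2 with 56 and 44 counts against at most 2. Among ligands, JAG1 had 20.4 and 18.5 CPM in H23 against 26.4 to 194. JAG1 was thus lower and DLK1 higher in H23, both being members of this Notch list.

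Of 17 genes of stemness and sphere growth, 9 were higher and 5 lower, 5 and 2 without overlap (median log2 0.47), and DESeq2 with lines as replicates called 1 in each direction. The share of lower genes is near that over all genes. The list medians were 1.28 against EBC1, -0.18 against H820 and 1.35 against H1975, and without H820 3 genes were lower. LIN28B, an embryonic RNA-binding protein, had 176 and 111 counts in H23 against at most 3, a ratio of 159 (interval 61.3 to 586). SALL4, an embryonic zinc finger factor, had 23.2 and 24.9 CPM in H23 against 0.279 to 3.14 (log2 3.98 ± 0.20, adjusted p = 3.63e-12). ALDH1A3, an aldehyde dehydrogenase used to mark tumour-initiating lung cells, had 3.57 and 4.02 CPM in H23 against 12.3 to 513 (log2 -4.29 ± 0.23, adjusted p = 1.52e-11), and KLF4 had 10.5 and 14.7 CPM against 32.3 to 70.6. SOX2 was higher with overlap, at 10.1 and 10.3 CPM in H23 against 4.06 to 15.6.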
